A study of Drosophila melanogaster with 4 samples.

Results

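Long noncoding RNA (lncRNA) and antisense RNA (asRNA) genes are transcribed into long RNAs that are not known to be translated. Some lncRNAs act in the nucleus, where they bring proteins to chromatin or hold them in nuclear bodies, and others serve as precursors from which microRNAs (miRNAs) are cut. Antisense RNAs run opposite to a coding gene and share sequence with it. The genes described here are those whose RefSeq noncoding transcripts carry a symbol that begins with lncRNA or asRNA and whose level, averaged over 4 ovary libraries, was 1 or more. They were chosen by this measured level, which is therefore given as a description. They number 52 of the 580 such genes in the tables, 43 lncRNA and 9 asRNA genes, among 14777 genes in all. Of the others, 329 were listed at 0 in every library and 199 had a mean above 0 and under 1.

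Total RNA of Drosophila melanogaster ovaries, depleted of ribosomal RNA, was sequenced in 2 libraries of white-embKD and 2 of piwi-embKD, described as independent biological replicates. Flies of both groups carried vasa-GAL80[ts], a temperature-sensitive GAL80 under control of the germline gene vasa, in 1 copy and da-GAL4, in which the daughterless (da) promoter drives GAL4. The third element was shwhite in white-embKD, a hairpin against the eye-colour gene white, or shpiwi in piwi-embKD, a hairpin against piwi, which encodes a nuclear Argonaute protein that works with piRNAs to silence transposons. Rearing was at 18 °C, with a shift to 28 °C at the embryo stage for RNA interference, and the age of the adults is not given. Because each hairpin came in a line of its own, an effect of piwi knockdown cannot be told apart from one of the line.

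Levels are the authors' normalized effective counts, the effective counts of the program eXpress multiplied by a library factor, summed here per gene. Effective counts are estimates that eXpress adjusts for transcript length, not counted fragments. How far that adjustment shapes the levels of the shortest RNAs was not tested. A level of 1 stood for about 20.2 and 19.9 effective counts with shwhite and 15.9 and 16.4 with shpiwi, of 16194219 to 20025084 per library, inferred from the smallest step between values. The piwi gene stood at 410.0 and 401 with shwhite and at 238 and 121 with shpiwi (limma adjusted p = 0.0562). Germ cell markers summed to 5331 and 5116 with shwhite and 4324 and 4560.2 with shpiwi, and limma called 0 of the 7 tested (1 higher and 3 lower at an unadjusted p under 0.05). Follicle cell markers summed to 1417 and 1374 with shwhite and 3198 and 3231 with shpiwi (5 of 6 tested were higher), and gut enzyme genes to 257 and 234 with shwhite and 68.4 and 0.73 with shpiwi (7 of 12 were lower, and none of the 12 was at 0 throughout). Of 9 muscle markers 4 were higher (median log2 change 0.82). Without Tm1, which made up most of their signal and had a log2 change of −0.12, the other 8 summed to 173 and 167 against 304 and 242. Nerve markers summed to 5.19 and 4.77 against 7.54 and 5.60. Most of this was elav, at 4.84 and 4.30 against 6.81 and 5.05, the 1 nerve marker tested, which was not called (limma adjusted p = 0.409). Transposon sequences took 0.40% and 0.41% of the libraries with shwhite and 2.58% and 3.61% with shpiwi. The part of these cell types and of the transposon signal in the results below was not tested, and in bulk ovaries fewer cells of a type and less RNA per cell cannot be told apart.

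Of the 52 RNAs, 4 were higher in piwi-embKD ovaries and 0 were lower by limma with Benjamini-Hochberg adjustment over 8118 genes, transposon families and unmatched transcripts. That is 7.69% of the RNAs, against 6.85% of all features tested (5.17% higher and 1.68% lower), so the share was near the background. Of the 52 RNAs, 4 had a mean of 1 or more with shpiwi alone (CR43967, the alphagamma element, roX1 and CR44157) and 0 with shwhite alone. The minimum thus let them in through the group in which they were high, and 2 of the 4 calls, CR43967 and the alphagamma element, are among them. The other 48 held 2 calls, both higher. These counts and the median below are therefore descriptions, tilted by the choice on level. Before adjustment, limma p-values under 0.05 numbered 10 higher and 2 lower, where 25.1% of all features had one. Both piwi libraries lay above both white libraries for 19 RNAs and below them for 10, and the groups overlapped for 23. The background for these counts was 25.9% of all features above and 33.1% below, 59% in all, against 55.8% of the 52. The median log2 change was 0.15 for the 52 RNAs, 0.11 for those 48 and −0.04 for all features. The 4 were CR43967, the alphagamma element, CR43264 and CR42491, all lncRNA genes. With libraries left out one by one, the count ran from 1 higher (without white-embKD replicate 2) to 7 higher (without piwi-embKD replicate 1 or replicate 2), and the count lower from 0 to 3 (3 and 2 without piwi-embKD replicates 1 and 2).

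**Figure D1:**
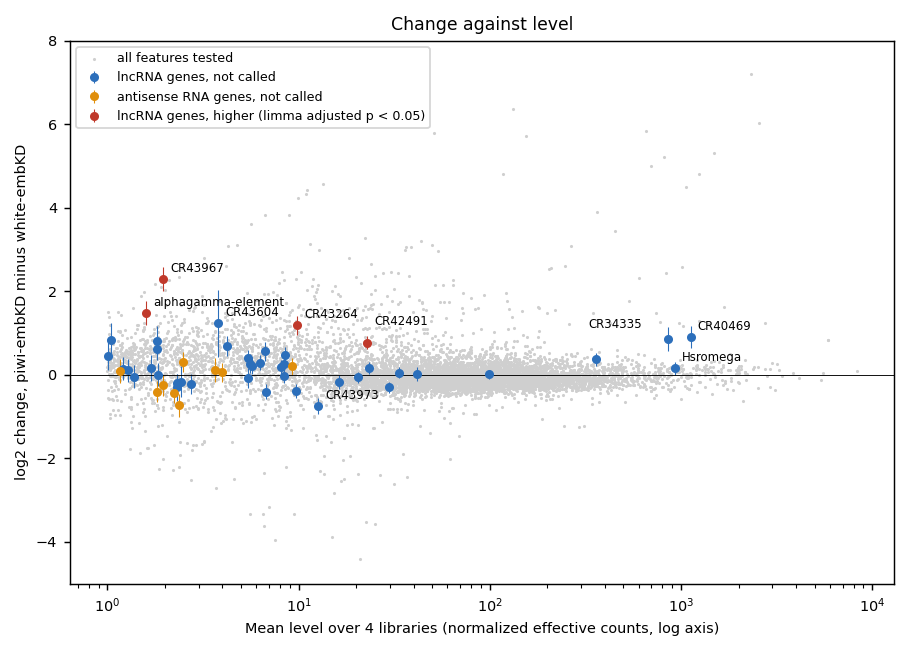
Log2 change (piwi-embKD minus white-embKD, with the standard error from limma as bars) against the mean level over 4 libraries on a log axis, for all 8118 features tested (grey) and the 52 RNAs (coloured). The 4 RNAs called higher lie between 0.77 and 2.29, and most of the others lie near 0, within the cloud of all features.

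CR43967 was detected in piwi-embKD ovaries and listed at 0 in both white libraries. With shpiwi its level was 3.26 and 4.58, or 51.9 and 75.0 effective counts. Set against a floor of 3 effective counts in each white library (a level of 0.15), the piwi mean of 3.92 ± 0.93 (SD, n = 2) was 26.2-fold higher. Effective counts are not fragments, so the fold depends on this choice of floor. The limma adjusted p was 0.00863, and the fitted log2 change of 2.29 depends on the pseudocount. The RNA reached both the minimum of 1 and that of the test only through the piwi libraries, so p and fold come from values that also chose it. The gene lies on chromosome arm 3L and has 245 nt of exons, inside CG34031 on the opposite strand without a shared exon base. CG34031 was at 0.09 and 0.44 with shwhite and at 0 in both piwi libraries. On one side the next gene is nAChRalpha4, a subunit of the nicotinic acetylcholine receptor, which fell from 144 and 134 to 85.6 and 68.4 (log2 change −0.85, limma adjusted p = 0.0163). On the other side is Vps11, a subunit of the complexes that tether vesicles to endosomes and lysosomes, at 823 and 892 against 681 and 490 (limma adjusted p = 0.104).

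The alphagamma element (CR32865, arm 3R) is a noncoding gene of the heat shock locus that also holds copies of Hsp70, and its RNA is known to be made on heat shock. Its level was 0.30 and 0.44 with shwhite and 2.49 and 3.14 with shpiwi. Means were 0.37 ± 0.10 and 2.82 ± 0.46 (SD, n = 2 each), a 7.67-fold difference. The fitted log2 change was 1.48 ± 0.28 SE with a limma adjusted p of 0.0324, again for an RNA over the minimum only through the piwi libraries. Without white-embKD replicate 1 or replicate 2 the call was lost, at 1.41 (limma adjusted p = 0.246) and 1.56 (0.216).

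Of the element's 1357 nt of exons, 621 (45.8%) lie in annotated insertions of the LTR retrotransposon Dm88 on the same strand, and 406 of these are also annotated as invader1. It was the one RNA of the 52 with exon bases in these families. The consensus sequences of both families were higher in piwi-embKD. Dm88 stood at 6.29 and 6.93 against 14.1 and 16.2 (log2 change 1.09, limma adjusted p = 0.0146), and invader1 at 6.59 and 5.14 against 15.8 and 17.8 (1.38, 0.00891). eXpress divides fragments that fit several targets, so RNA of the element and of other copies cannot be told apart fully. The next gene on one side, the heat shock gene Hsp70Bbb, rose from 3.25 and 3.76 with shwhite to 13.6 and 13.8 with shpiwi (log2 change 1.71, limma adjusted p = 0.00356), and its near-identical copy Hsp70Bb was listed at the same values. Hsp70Ba, the next gene on the other side, was at 0.72 and 0.11 with shwhite and listed at 0 with shpiwi. The list of 7 Hsp70 and Hsp68 genes was added after values were seen. Of the 6 tested, 3 were called higher, Hsp70Bb, Hsp70Bbb and Hsp70Bc. The more abundant Hsp70Aa, at 87.3 and 95.2 with shwhite and 117 and 110 with shpiwi, was not called (log2 change 0.31, limma adjusted p = 0.124). Nor were Hsp70Ab (0.34, limma adjusted p = 0.0922) and Hsp68 (0.59, limma adjusted p = 0.336).

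INE-1, a short and very numerous DNA transposon, supplied exon bases of another pair of RNAs. It holds 285 of the 999 nt of CR43241 and 215 of the 586 nt of CR43256, on the strand opposite to the RNA. CR43241 stood at 7.01 and 6.81 with shwhite and 11.4 and 8.68 with shpiwi, which did not overlap (log2 change 0.47 ± 0.19 SE, limma adjusted p = 0.187), and it was called without piwi-embKD replicate 2 (0.65, 0.0361). CR43256 stood at 2.70 and 2.30 against 3.47 and 1.18, and the groups overlapped. It passed as lower without piwi-embKD replicate 1, the high one of the pair (−0.68, limma adjusted p = 0.0482). The INE-1 consensus was at 0.86 and 1.17 with shwhite and 0.67 and 0.76 with shpiwi, under the minimum for the test.

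CR43264, a single-exon RNA of 318 nt on the X chromosome, rose 2.46-fold. It stood at 6.88 and 4.53 with shwhite and at 15.1 and 13.0 with shpiwi, means of 5.71 ± 1.67 and 14.0 ± 1.53 (SD, n = 2 each). Its log2 change was 1.18 ± 0.22 SE with a limma adjusted p of 0.0308. Without white-embKD replicate 2, the lower white library, the change was 0.93 and did not pass (limma adjusted p = 0.189). The gene lies within CG15765 on the opposite strand without a shared exon base. CG15765 was listed at 0 in 3 libraries and at 0.03 in white-embKD replicate 1.

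CR42491, also on the X chromosome, rose 1.75-fold. It stood at 18.2 and 15.2 with shwhite and at 31.1 and 27.2 with shpiwi, means of 16.7 ± 2.13 and 29.2 ± 2.81 (SD, n = 2 each). The log2 change was 0.77 ± 0.15 SE with a limma adjusted p of 0.0345. Leaving out white-embKD replicate 1 ended the call (0.89, limma adjusted p = 0.0925), and so did leaving out replicate 2 (0.65, 0.312). The gene shares 377 of its 747 exon bases (50.5%) with RpL22, which encodes a protein of the large ribosomal subunit, on the same strand. eXpress divides fragments that fit both, so RNA of CR42491 and of the far more abundant RpL22 cannot be told apart fully. RpL22 stood at 520 and 592 against 687 and 626 (log2 change 0.24, limma adjusted p = 0.232). Its intron holds snoRNA:Psi18S-531, a small nucleolar RNA of the kind that guides pseudouridylation of 18S ribosomal RNA, which stood between 0 and 0.21.

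Small nucleolar RNAs work in particles with a fixed set of proteins. Of 9 genes for such proteins or their assembly factor, limma called 0 higher and 0 lower (3 higher at an unadjusted p under 0.05), with a median log2 change of 0.20. The methyltransferase gene Fib had the largest difference of the list, 98.5 and 94.3 against 122 and 179.6 (0.61, limma adjusted p = 0.107). The exosome, which trims and degrades nuclear noncoding RNA, was measured through 12 genes, of which limma called 0 (2 higher and 0 lower before adjustment; median 0.09, range −0.23 to 0.37).

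**Figure D2:**
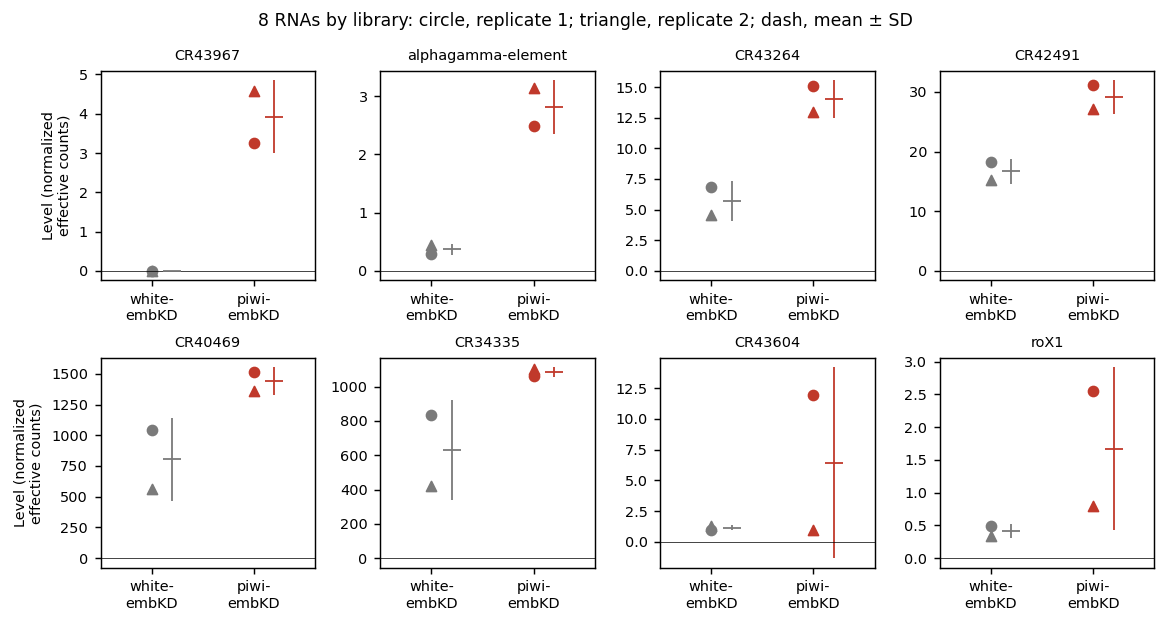
Level (normalized effective counts, linear axes with 0 marked) of 8 RNAs in each library, grey for white-embKD and red for piwi-embKD, circles for replicate 1 and triangles for replicate 2, with the mean ± SD as dashes and bars. The top row holds the 4 RNAs called higher, and in the bottom row CR43604 is high in piwi-embKD replicate 1 alone.

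The 4 most abundant, CR40469, Hsromega, CR34335 and CR42862, held 87.3% and 83.3% of the summed signal of the 52 with shwhite and 88.1% and 90.2% with shpiwi. The sum over all 52 was 3573 and 2551 with shwhite and 4285 and 4495 with shpiwi, or 0.26% to 0.45% of a library. Without the 4 most abundant it was 453 and 426 against 510 and 442. Per kilobase of exon, CR40469 at 5240 and CR34335 at 2372 led, followed by CR42862 at 65.8, CR30055 at 48.1 and Hsromega at 42.8. Length here is that of the merged exons of all annotated transcripts of a gene, which can exceed that of the transcripts present. The part of this choice and of the eXpress length adjustment in this order was not tested. The RNA last in this order was roX1, at 0.19 per kilobase.

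**Figure D3:**
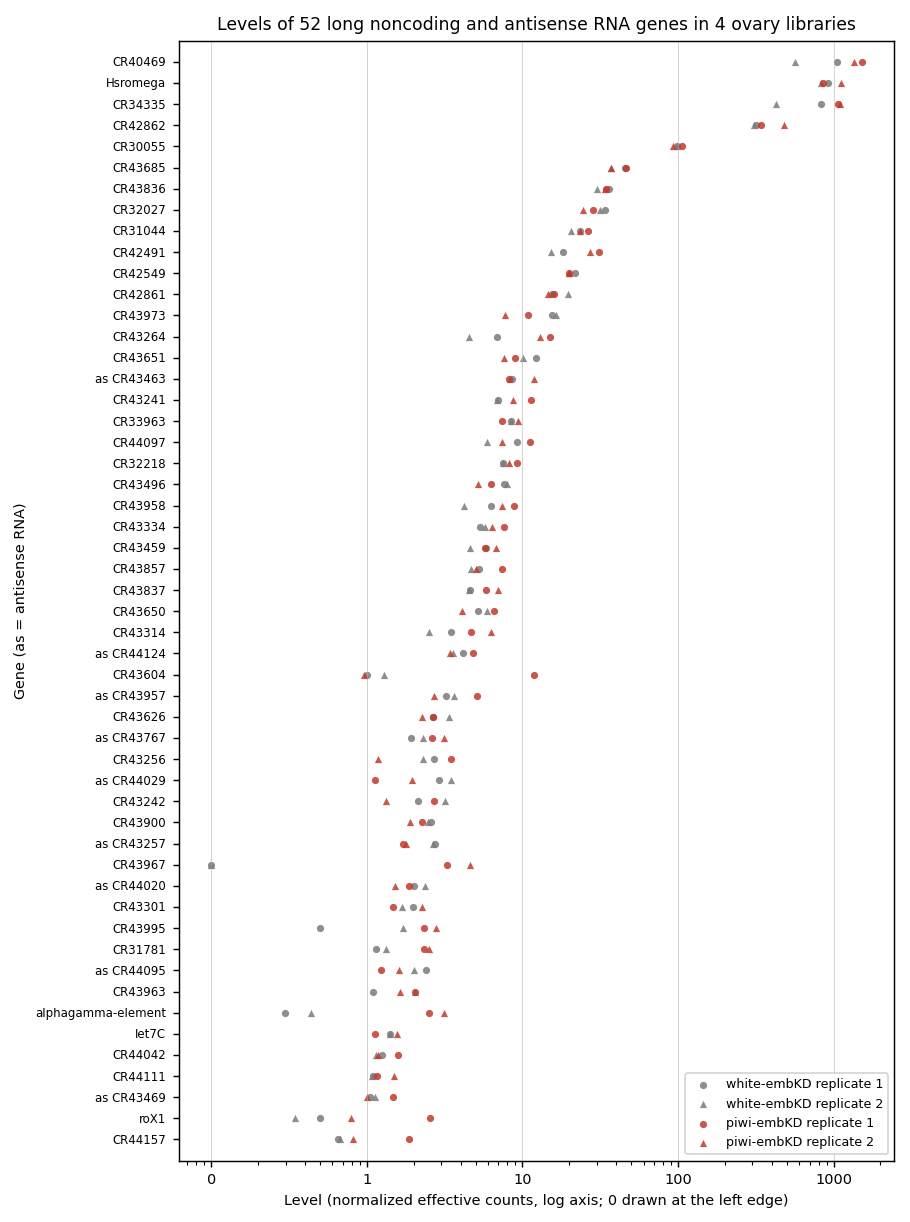
Level of each of the 52 RNAs (rows, ordered by mean level; as, antisense RNA) in the 4 libraries, on a log axis of normalized effective counts with 0 drawn at the left edge. The 4 libraries lie close together for most RNAs; CR43967 and the alphagamma element show the widest gaps between grey and red points, and CR43604 a single high library.

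CR40469 and CR34335 are short single-exon RNAs of the X chromosome, of 214 and 361 nt. CR40469 stood at 1044 and 564 with shwhite and at 1519 and 1359 with shpiwi. CR34335 stood at 835 and 423 with shwhite and at 1064 and 1103 with shpiwi. Both were higher in both piwi libraries, but the white libraries differed 1.85-fold for CR40469 and 1.97-fold for CR34335, with white-embKD replicate 2 the lower for both.

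The log2 changes were 0.90 ± 0.27 SE for CR40469 (limma adjusted p = 0.11) and 0.86 ± 0.29 SE for CR34335 (0.139), and neither passed. Without white-embKD replicate 1 they were 1.35 (limma adjusted p = 0.00756) and 1.35 (0.00606), both past the threshold, and without white-embKD replicate 2 they were 0.46 and 0.37. The signal recognition particle RNA 7SLRNA, another abundant short RNA (chosen after its values were seen), was lowest in the other white library, at 2647 in replicate 1 and 6264 in replicate 2, with 7117 and 7367 with shpiwi. CR34335 lies inside DIP-alpha, a gene for a cell surface protein of neurons, on the same strand without a shared exon base. DIP-alpha stood at 4.68 and 5.29 against 6.18 and 6.91.

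CR42862 (arm 3L) stood at 315 and 309 with shwhite and at 341 and 478 with shpiwi. The fitted log2 change was 0.37 ± 0.16 SE (limma adjusted p = 0.219). It was 0.61 and past the threshold without piwi-embKD replicate 1 (limma adjusted p = 0.00154), and 0.13 without piwi-embKD replicate 2. Among its 5 RefSeq transcripts NR_037746 held 61.8% of the level. It shares 246 exon bases with CG33229 on the same strand, which stood at 191 and 210.1 against 179 and 174. The other abundant lncRNAs differed little: CR30055, which lies within the corepressor gene Sin3A, was at 98.4 and 98.2 against 107 and 92.7, CR43685 at 45.4 and 36.9 against 46.4 and 37.2, and CR43836 at 35.8 and 30.3 against 34.4 and 34.0. Their log2 changes were 0.02, 0.02 and 0.05, inside the spread between replicates. CR32027, within the citrate transporter gene Indy on the opposite strand, was lower in both libraries with shpiwi, at 33.9 and 31.4 against 28.6 and 24.4 (−0.30 ± 0.13 SE, limma adjusted p = 0.222). It was called without piwi-embKD replicate 1 (−0.41, limma adjusted p = 0.0371).

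Hsromega, the second most abundant, encodes the heat-inducible RNA of the omega speckles, nuclear bodies that store RNA-binding proteins of the hnRNP class. It stood at 926 and 830 with shwhite and at 852 and 1113 with shpiwi, and the groups overlapped. Its log2 change was 0.15 ± 0.15 SE (limma adjusted p = 0.551). Without piwi-embKD replicate 1 it was 0.34 and passed (limma adjusted p = 0.0302), and without piwi-embKD replicate 2 it was −0.04.

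Of its 6 RefSeq transcripts NR_074035 held 86.0% of the mean level, at 849 and 771 against 677 and 902. The next, NR_002068, stood at 39.6 and 12.7 with shwhite and 84.7 and 124 with shpiwi, and NR_074036 at 18.0 and 11.3 against 49.5 and 57.7. The split between these isoforms rests on how eXpress divides fragments that fit several of them, and they were not tested singly. Of 7 listed genes for hnRNPs and other RNA-binding proteins, limma called 0 (3 higher before adjustment), and the median log2 change was 0.05. The largest was nonA, at 23.8 and 18.4 against 29.9 and 38.4 (0.67, limma adjusted p = 0.0874), and Hrb87F stood at 143 and 128 against 157 and 202.

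The RNA roX1 is known for coating the male X chromosome with the dosage compensation complex, which raises transcription there, and it is lost from females early in development. Its level in these ovaries was low, at 0.50 and 0.35 with shwhite and 2.55 and 0.79 with shpiwi. Both piwi libraries lay above both white ones, and they differed 3.21-fold from each other. The log2 change was 0.83 ± 0.40 SE (limma adjusted p = 0.257). Without piwi-embKD replicate 2 it was 1.32, a value that rests on piwi-embKD replicate 1 alone, the library that brought roX1 over the minimum. Its partner roX2 was under the minimum, at 0.11 and 0 with shwhite and 0.14 and 0 with shpiwi. Of the 5 genes of the complex, msl-1, msl-2, msl-3, mle and mof, limma called 0 (1 lower before adjustment, median 0.05). Of 10 testis markers 8 were at 0 in every library, and their sum was 1.86 and 0.73 with shwhite and 1.71 and 1.49 with shpiwi.

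On the other strand roX1 shares 7.17% of its exon bases with ec, which encodes echinus, a ubiquitin protease-like protein of eye development. This gene stood at 2.13 and 3.30 with shwhite and 6.69 and 8.76 with shpiwi and rose (log2 change 1.24 ± 0.25 SE, limma adjusted p = 0.0392). The strand setting of the authors' counting is not given in the sources used here, and without it reads of a gene and of its antisense partner cannot be told apart.

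Exons of 10 of the 52 RNAs hold 14 annotated miRNA genes. Hsromega, which holds mir-4951 and is described above, is left out here because it is known for another role. The exons of the other 9 hold 13 miRNA genes, from whose primary transcripts the enzyme Drosha cuts hairpins. Of these 9 RNAs limma called 0 higher and 0 lower. Among all features tested 6.85% were called, so 0 of 9 does not set these RNAs apart. Their median log2 change was 0.17, with a range of −0.39 to 0.69. At an unadjusted p under 0.05 limma counted 1 higher, CR43314. The 13 miRNA genes were listed at 0 as targets of their own in every library. The summed level of the 9 precursors was 64.9 and 58.8 with shwhite and 71.0 and 63.3 with shpiwi.

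The most abundant of the 9 was CR31044, which carries mir-279 and mir-996, regulators of JAK-STAT signalling and neuron formation, at 23.6 and 20.4 with shwhite and 26.4 and 23.3 with shpiwi. CR43651 carries mir-14, a regulator of cell death and fat storage, and was lower in both piwi libraries, at 12.3 and 10.1 against 8.92 and 7.65 (log2 change −0.39 ± 0.18 SE, limma adjusted p = 0.23). CR43334 carries bantam, which promotes growth, blocks cell death and is needed to keep germline stem cells, and it was at 5.30 and 5.77 against 7.62 and 6.40 (0.29 ± 0.19 SE). The lowest piwi library lay above the highest white one, but the difference did not pass (limma adjusted p = 0.368).

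CR43314 carries bereft (the mir-263a gene), which protects sense organ cells from death. It had the largest difference of the class, at 3.46 and 2.52 with shwhite and 4.65 and 6.25 with shpiwi (0.69 ± 0.24 SE, limma adjusted p = 0.149). It was called without piwi-embKD replicate 1 (0.87, limma adjusted p = 0.0254). The mir-277 and mir-34 host CR43459 stood at 5.82 and 4.63 against 5.73 and 6.73, the mir-275 host CR43857 at 5.26 and 4.64 against 7.40 and 5.05, and the mir-8 host CR43650 at 5.15 and 5.93 against 6.53 and 4.10. In these 3 the groups overlapped.

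The mir-282 host CR43626 was at 2.67 and 3.39 with shwhite and 2.64 and 2.25 with shpiwi. let7C, the precursor of let-7, miR-100 and miR-125, which time the passage from larva to adult, was at 1.41 in each library with shwhite and at 1.12 and 1.56 with shpiwi. Its log2 change of −0.05 ± 0.27 SE (limma adjusted p = 0.931) lay inside the spread of the piwi pair. On the other strand let7C shares 169 exon bases with CG10283, which stood at 8.74 and 8.11 with shwhite and 13.0 and 15.5 with shpiwi (0.69, limma adjusted p = 0.0608).

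**Figure D4:**
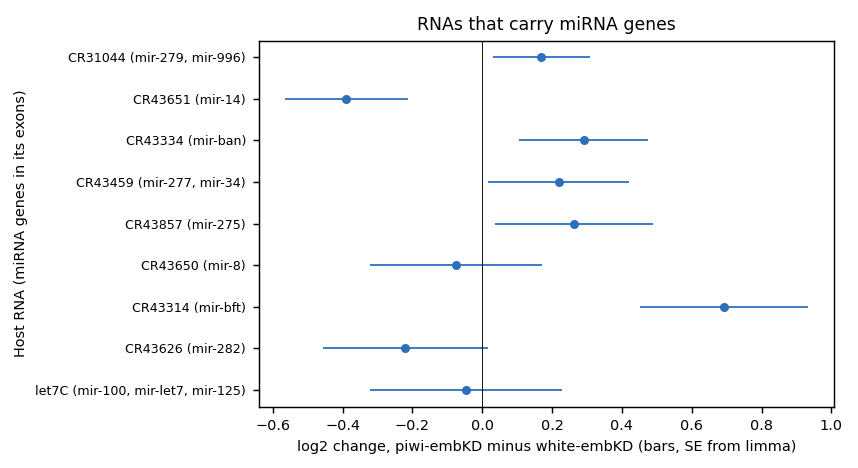
Log2 change (piwi-embKD minus white-embKD, with the standard error from limma as bars) of 9 RNAs whose exons hold miRNA genes (all such RNAs except Hsromega), named with those genes and ordered by mean level. The points lie between −0.39 and 0.69 and none passed the test.

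Of the 9 antisense RNAs limma called 0 higher and 0 lower, with levels of 1.16 to 9.23 and a median log2 change of 0.06. With 6.85% of all features called, 0 of 9 does not set these RNAs apart. Both piwi libraries lay above both white ones for 1 (CR43767) and below for 4 (CR44029, CR43257, CR44020 and CR44095). That is 55.6% of the 9 without overlap, near the 59% of all features (25.9% above and 33.1% below). Before adjustment 1 p-value from limma was under 0.05, that of CR44029 (lower). Together they summed to 28.9 and 29.5 with shwhite and 28.1 and 29.0 with shpiwi.

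CR44029 of chromosome 4 lies antisense to unc-13, a gene for priming of synaptic vesicles, with 705 shared exon bases. It stood at 2.89 and 3.47 with shwhite and at 1.13 and 1.96 with shpiwi (log2 change −0.73 ± 0.28 SE, limma adjusted p = 0.169), and it was called without piwi-embKD replicate 2 (−0.97, 0.0256). Its partner unc-13 stood at 306 and 278 against 201 and 141 and fell (log2 change −0.79 ± 0.17 SE, limma adjusted p = 0.0493). CR44095 shares 439 exon bases with Cys, a cystatin-like protease inhibitor gene, and the differences had opposite signs. CR44095 went from 2.39 and 2.00 to 1.23 and 1.62 without passing (−0.40 ± 0.26 SE, limma adjusted p = 0.376), while Cys rose from 8.34 and 7.88 to 14.6 in both piwi libraries (0.78 ± 0.15 SE, limma adjusted p = 0.0319).

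CR44020 lies antisense to osk, whose product founds the germ plasm, with 162 shared bases. It stood at 2.02 and 2.38 with shwhite and 1.86 and 1.52 with shpiwi, and osk at 2914 and 2670 against 2137 and 2341 (log2 changes −0.25 and −0.32, limma adjusted p = 0.561 and 0.158). The most abundant antisense RNA, CR43463, lies wholly within exons of Pgant35A, a glycosyltransferase gene, and stood at 8.51 and 8.36 against 8.15 and 11.9. CR43257, which overlaps ETH, the ecdysis triggering hormone gene, and Orc4, of the origin recognition complex, stood at 2.75 and 2.68 against 1.71 and 1.77. The pairs were tight and did not overlap, but the difference did not pass (−0.44 ± 0.23 SE, limma adjusted p = 0.294).

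Over all 52 RNAs, 11 shared exon bases with a tested coding gene of the opposite strand and 10 with one of the same strand, and CR44097 with both. On the opposite strand the RNA and the coding gene differed in the same direction in 6 pairs and in opposite directions in 5, and the counts on the same strand were 5 and 5. Of the 11 opposite-strand coding partners, ec and Cys were called higher and unc-13 lower (limma adjusted p = 0.0493, just under the threshold). Of the 10 same-strand partners 0 was called, and 6.85% of all features were. A difference between the strands was not tested. For same-strand pairs eXpress divides fragments of the shared bases between the RNA and the coding gene. CR44097 lies wholly within exons of CG6000 and shares 13 bases with the heat shock gene Hsp68. It stood at 9.18 and 5.94 against 11.2 and 7.33, with the groups overlapping, and CG6000 at 28.9 and 33.1 against 29.5 and 22.3.

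**Figure D5:**
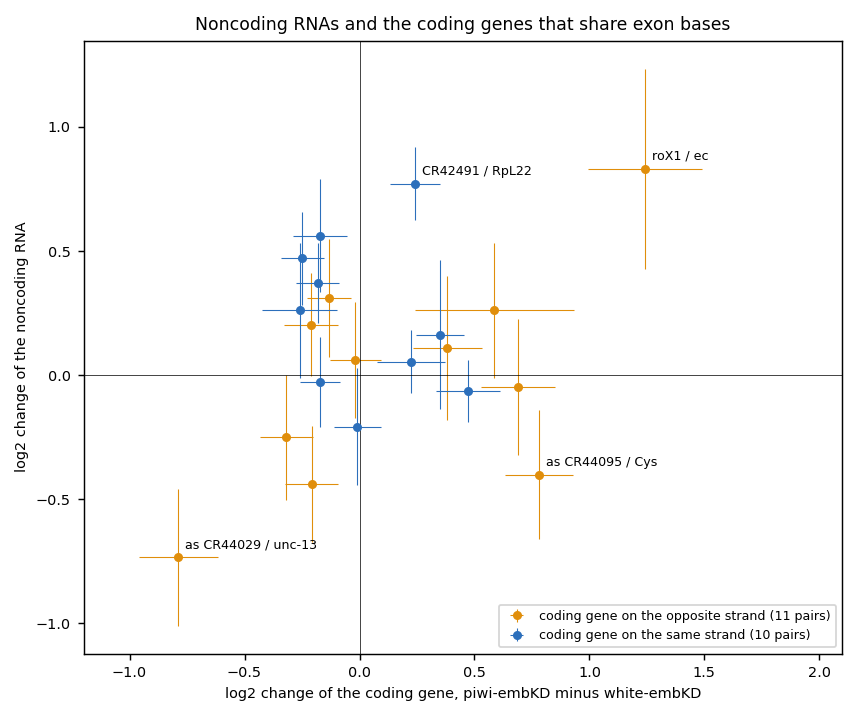
Log2 change of the noncoding RNA against that of the coding gene that shares exon bases with it (piwi-embKD minus white-embKD, bars are standard errors from limma), orange for 11 pairs on opposite strands and blue for 10 on the same strand. Pairs in which either gene was called are named; unc-13 and its antisense RNA lie at the lower left and ec and roX1 at the upper right.

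Among RNAs inside introns, CR43973 had the lowest adjusted p of those with lower levels under shpiwi. It lies within Ctps, the gene for CTP synthase, on the opposite strand, and stood at 15.5 and 16.4 with shwhite and at 10.8 and 7.75 with shpiwi. The fitted log2 change was −0.74 ± 0.19 SE (limma adjusted p = 0.075). Leaving out either piwi-embKD library brought it past the threshold, at −0.96 without replicate 1 (limma adjusted p = 0.00533) and −0.53 without replicate 2 (0.0474). Ctps itself stood at 199.8 and 203 against 204 and 173. CR43496, within sov, a gene for heterochromatin and transposon silencing, averaged 7.83 ± 0.24 with shwhite and 5.70 ± 0.75 with shpiwi (SD, n = 2 each), without overlap (log2 change −0.40 ± 0.18 SE, limma adjusted p = 0.229).

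CR43604, an RNA of 201 nt within dachs, a gene of growth control and planar polarity, was high in a single library. It stood at 0.999 and 1.30 with shwhite, at 11.9 in piwi-embKD replicate 1 and at 0.95 in replicate 2. Its log2 change was 1.23 ± 0.81 SE (limma adjusted p = 0.38). Without piwi-embKD replicate 2 it was 2.59 (limma adjusted p = 0.000883), a value that rests on 1 piwi library. The host gene dachs lay between 0.19 and 0.24 in all 4 libraries.

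CR43958 of chromosome 4 shares 412 of 745 exon bases with Tdg, a DNA glycosylase gene, and stood at 6.31 and 4.20 with shwhite and 8.83 and 7.43 with shpiwi (log2 change 0.56 ± 0.23 SE, limma adjusted p = 0.193). CR31781 stood at 1.15 and 1.32 against 2.33 and 2.50 (0.61 ± 0.25 SE, limma adjusted p = 0.197), with both pairs tight. Between the replicates, 7 of 51 RNAs with values above 0 differed by over 1.5-fold in the white pair and 10 of 52 in the piwi pair. The median difference between replicates on the log2(level + pseudocount) scale was 0.16 in the white pair and 0.23 in the piwi pair, against 0.08 and 0.19 for all features.

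The minimum of 1 fell between CR44157, at 0.65 and 0.68 with shwhite and 1.87 and 0.81 with shpiwi, and the antisense RNA CR43468, at 0.95 and 0.87 against 0.85 and 1.06. The next above was roX1 and the next below CR43971, at 1.17 and 1.19 against 0.54 and 0.66.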

How the data were processed

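Total RNA of ovaries was measured in 4 libraries (4 µg each, paired reads of 150 nt, Illumina NextSeq, per the labels' protocols). The authors deposited 1 signal value per target and library, the eXpress effective count times a normalization factor, per the file headers and names; Bowtie2, STAR, Cufflinks and dm3 appear without roles in the submitters' processing notes. For the annotation, the strand setting and the origin of the factor, the sources used here give nothing. Of 29511 transcripts, 28595 (96.9%) were matched to symbols with an NCBI RefSeq table of Release 6, and 137 of 1691 noncoding accessions were not; values were summed per gene. Exon lengths, strands and overlaps come from Ensembl release 115 (BDGP6.54), which is not the authors' build, so no coordinates are given.

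Depth was inferred by taking the smallest step between values as 1e-06 of an effective count. Levels worth few counts carry counting error beside the spread between replicates, and floors cover counting error only. Groups came from sample titles. The test was limma 3.58.1 (R 4.3.3), with the variance prior following mean level, run on log2(value + 0.995) for 8118 features with a mean of at least 0.995 (7780 genes, 107 transposon families, 231 unmatched transcripts), two-sided, with Benjamini-Hochberg adjustment and a threshold of 0.05. Log2 changes are piwi-embKD minus white-embKD and understate changes of low genes. In 3 simulated runs over 8118 features with 200 changed, the test found 61.3% of the 2-fold and 88% of the 4-fold differences, and 4.50% of its calls were false. The runs shuffled the spreads over features and set the changes on the log2(value + 0.995) scale. The median SE was 0.24 for the 52 RNAs and 0.13 for all features, so these rates do not describe the 52 RNAs.

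Alternatives were other pseudocounts, filters and scaling, no trend, a replicate block and leaving out each library. Genes named were all called, the 10 most abundant, those with a name, those next to the minimum and, chosen after their values were seen, the miRNA hosts, the antisense RNAs, RNAs with an unadjusted p under 0.05 and a few others. The genes and lists were chosen with earlier results of these data known. No sequences are shown.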

Additional observations from a re-analysis of the deposited data

How the results depend on the processing

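The 4 RNAs called higher were all called with the smaller pseudocount (0.249), the larger pseudocount (3.98), median-of-ratios scaling, no trend, the replicate block, totals without transposons (an alternative chosen after seeing the data) and without either piwi library. The count higher was 1 with no filter on low values, CR43967, and 2 with the stricter filter of a mean of at least 5, CR43264 and CR42491, where the other 2 were not tested. With single libraries left out it lay between 1 and 7, and the count lower between 0 and 3. CR43967 was called in each alternative in which it was tested, with a log2 change of 4.05 with the smaller and 0.98 with the larger pseudocount. Those fits reuse the piwi values that brought CR43967 over the minimum, so their agreement is no separate support for the call. With no filter on low values the calls of CR42491, CR43264 and the alphagamma element were lost (limma adjusted p = 0.13, 0.141 and 0.0645), where 12053 features were tested. With the replicate block 6 were higher and 1 lower, the additions being CR40469 (limma adjusted p = 0.0044), CR34335 (0.0174) and CR43973 (0.0334). Whether same-numbered libraries were prepared together is not given in the sources used here. Their deviations from the group means correlated at 0.06 across 8118 features, which are not independent replicates. A correlation over all features cannot show how libraries were prepared. Without the trend CR31781 was added (limma adjusted p = 0.0425). Over all 52 RNAs, 17 calls were gained and 10 not made, summed over the alternatives (2 of the 10 were not tested). For the 22 RNAs followed under every alternative in which they were tested, 231 values kept their side of the threshold, 15 passed where the main value had not and 8 no longer passed. The cause of these shifts was not tested. Fits that leave out a library keep a single library in 1 group, which is assumed to vary like the other group. At levels near 1, depth limits what can be seen to differences of several effective counts.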

Other observations

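Several lncRNAs known from other tissues lay under the minimum of 1 and were not compared. The RNA of sphinx, known for its part in male courtship, stood at 0.92 and 0.52 with shwhite and 0.74 and 0.46 with shpiwi. The bithorax complex RNA iab8, whose transcript also yields a miRNA, stood at 0.07 and 0.08 against 0.17 and 0.57, bxd of the same complex was above 0 in piwi-embKD replicate 1 alone (0.08), and iab4 was at 0 throughout. Values of yar and cherub, an RNA known from neural stem cell tumours, were 0 in 3 libraries each. The 199 genes above 0 and under the minimum summed to 27.4 and 24.5 with shwhite and 30.7 and 28.9 with shpiwi.

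The share of genes at or above the minimum differed between chromosomes, given here as counts with no test. On the X chromosome 13 of 73 lncRNA and asRNA genes in the tables (17.8%) reached it, against 3 of 12 (25.0%) on chromosome 4 and 5.33% (9 of 169) to 8.99% on the arms of chromosomes 2 and 3. The 13 on the X included CR40469 and CR34335. A split by exon length was chosen after the values were seen: all 7 RNAs with under 400 nt of exons had a positive log2 change (median 0.90), as did 28 of the other 45 (median 0.11) and 44.3% of all features tested. The 7 include CR43967, which reached the minimum only through the piwi libraries, and CR43604, high in a single piwi library. They also include CR40469 and CR34335, whose white libraries differed 1.85-fold and 1.97-fold, and CR44124, with a log2 change of 0.06. The share of all features covers every length, and a link with length was not tested.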
